A study of Mus musculus with 7 samples.

Results

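The 7 genes described here encode the MHC class II molecule, its chaperone, its peptide editor and its master activator: H2-Aa, H2-Ab1, H2-Eb1, Cd74, H2-DMa, H2-DMb1 and Ciita. They were taken by symbol from the 23583 gene entries of the RNA tables, and all 7 were listed. They were chosen by their FPKM difference between these same RNA libraries, so their RNA values are given as a description, with no test. The cells were primary dermal fibroblasts of female FVB/N mice, kept for 8 days in medium with 10% serum and either left untreated or given thapsigargin for 3 h. Thapsigargin inhibits the pump that fills the endoplasmic reticulum with calcium, and the stress that follows induces the transcription factor ATF4. Of 7 libraries, 2 measured RNA (1 untreated, 1 treated), 2 the DNA-bound factor CEBPB (1 untreated, 1 treated), 1 bound ATF4 (treated) and 2 the DNA methylation of untreated cells, deposited as 1 pooled value per cytosine. The labels give no transgene or mutation and do not say how many animals were used or whether they were pooled.

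MHC class II molecules hold peptides from endocytosed proteins on the cell surface, where CD4+ T cells read them. Dendritic cells, B cells and activated macrophages are the usual producers, and fibroblasts make them after exposure to interferon gamma. The RFX complex, CREB and NF-Y bind a shared promoter element with an X box and a Y box, and CIITA, which does not bind DNA itself, is recruited by them and switches the genes on.

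In the reference strain the promoter element can be read in 3 members. Their letters are shown because genes of very different RNA level share it there. The sequences are from RefSeq on GRCm38.p6, written 5′ to 3′ in the direction of transcription. Capitals mark GNAACT, a core of the X box, TGATTGG, the Y box with the inverted CCAAT bound by NF-Y, and in H2-Aa also TGACGTCA, the palindrome read by CREB and ATF factors. H2-Aa lies on the minus strand at chr17:34287847-34287944, and H2-Eb1 at chr17:34305736-34305832 and H2-DMb1 at chr17:34153057-34153154 lie on the plus strand.
H2-Aa: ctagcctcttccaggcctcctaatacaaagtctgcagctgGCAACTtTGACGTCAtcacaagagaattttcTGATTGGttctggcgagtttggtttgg
H2-Eb1: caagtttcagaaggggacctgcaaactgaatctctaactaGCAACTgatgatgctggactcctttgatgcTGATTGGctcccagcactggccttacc
H2-DMb1: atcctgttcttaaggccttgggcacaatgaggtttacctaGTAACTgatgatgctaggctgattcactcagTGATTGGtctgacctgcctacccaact
The boxes were separated by 25, 24 and 25 bases. The pair, GNAACT followed by TGATTGG 10 to 40 bases on, read on both strands, was found in 90 of 32851 RefSeq promoters of the same length (0.274%), TGATTGG alone in 7.82% and TGACGTCA in 1.79%. These motifs were chosen after the letters were seen, and a match is a description of letters only. FVB/N may differ from these letters. At -50 bp from the start of H2-Aa, the first T of TGATTGG, the bisulfite values listed a CpG cytosine, at 2%. Whether FVB/N holds the Y box there was not tested. The H2-DMa windows held no such pair, but they lie upstream of the gene entry measured here, whose own start was not searched. H2-Ab1 had no entry among these promoters, and the promoters of Cd74 and Ciita, which lie on other chromosomes, were not looked up.

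RNA levels are FPKM values, which scale the fragments of a gene to its length and to the library size, with the confidence bounds deposited beside each value. The number of fragments behind a value was read from those bounds. Over all entries with a status of OK they implied 53914231 fragments untreated and 78941806 treated. Of the 12207 entries at FPKM 1 or more in either library, called expressed here, 735 were higher and 3446 lower by 1 or more in log2(FPKM + 1), and the median log2 change was -0.52. Changes also ran with how densely a transcript is spliced: genes with junctions per kb like those of Cd74 had a median log2 change of -1.15, and genes like H2-DMa one of -0.23. A change relative to such genes is given where it matters.

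All 7 class II genes had a lower FPKM in the treated library, and the bounds of the 2 libraries did not overlap for any of them. The shares of all entries with a lower FPKM or with bounds apart were not counted. Such bounds cover counting error only, so bounds that lie apart are not a trait of these genes. Their summed FPKM was 276.6 untreated and 7.58 treated, which is 36.5-fold lower. Of the 6 that were expressed, 5 were lower by 1 or more in log2(FPKM + 1) and 0 were higher, where 28.2% of all expressed entries were lower and 6.02% were higher. The median log2 change of the 6 was -3.35, or -2.63 when set against genes of like junction density. The 5 that were lower kept a difference of 1 or more in that setting too. Because the cultures were measured in bulk and each condition was 1 library, fewer cells of a type and less RNA per cell cannot be told apart.

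The alpha and beta chains of the I-A molecule, the surface receptor that holds the peptide, had the widest differences. H2-Aa (chr17:34419696-34424716, minus strand, mm9) encodes the alpha chain and stood at FPKM 57.8 (bounds 55.9 to 59.8) untreated and 0.0392 (0.00413 to 0.0742) treated. Those values rest on 3518 and 5 fragments. H2-Ab1 (chr17:34400172-34406363, plus strand) encodes the beta chain and stood at 58.7 (56.9 to 60.6) and 0.0550 (0.0161 to 0.0939), on 4077 and 8 fragments. The chains thus had the same level in untreated cells within their bounds, and again in treated cells, where both were close to the limit of detection. The ratio of untreated over treated was 1477 for H2-Aa (95% counting interval 632 to 4551) and 1067 for H2-Ab1 (541 to 2474), and both had a log2(FPKM + 1) change of -5.82. Ordered by that change, H2-Ab1 was the 11th and H2-Aa the 12th lowest of the expressed entries.

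H2-Eb1 (chr17:34442812-34453619, plus strand) encodes the beta chain of the second class II molecule, I-E. It stood at FPKM 1.25 (1.03 to 1.47) on 128 fragments untreated and 0.141 (0.0892 to 0.192) on 30 treated. The untreated level was 0.0213 of that of H2-Ab1. Class II exons differ between FVB/N and the reference strain, and the effect of that on levels compared between these genes was not tested. The ratio was 8.90 (5.94 to 13.7), while the log2(FPKM + 1) change of -0.98 fell just short of the limit of 1. In the treated library the order was turned: H2-Eb1 stood at 2.55 times the level of H2-Ab1, though their bounds overlapped slightly.

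Cd74 (chr18:60963503-60972306, plus strand) encodes the invariant chain, which fills the peptide groove and guides the new molecule to the endosome. It was the most abundant of the 7 in both libraries, at 142.8 (139.3 to 146.3) on 6611 fragments and 5.61 (5.15 to 6.06) on 599. The ratio was 25.5 (23.4 to 27.7) and the log2 change -4.44, or -3.30 against genes of like junction density. Its interval lay wholly below those of H2-Aa and H2-Ab1, so that Cd74 RNA was 2.43 times that of H2-Ab1 in the untreated library and 101.9 times in the treated library. The treated level still ranked 6578th of 23583 entries, against 333rd untreated.

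H2-DMa and H2-DMb1 encode the chains of H2-DM, which removes the invariant chain remnant and exchanges peptides. H2-DMa (chr17:34272616-34275480, plus strand) stood at 9.63 (8.66 to 10.6) on 394 fragments untreated and 1.33 (1.08 to 1.58) on 115 treated. H2-DMb1 (chr17:34290136-34297174, plus strand) stood at 5.73 (5.18 to 6.28) on 434 fragments and 0.404 (0.303 to 0.505) on 64. H2-DMa had the smallest ratio of the 7, 7.25 (5.87 to 8.998), with a log2 change of -2.19, and its interval overlapped that of H2-Eb1. The ratio of H2-DMb1 was 14.2 (10.9 to 18.7), with a log2 change of -2.26, and the intervals of the DM chains did not overlap. Of 26 windows along the H2-DMb1 transcript, 2 have a near-identical copy elsewhere in the genome, so its values are less certain. The other 6 transcripts have none.

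Ciita (chr16:10480165-10527657, plus strand), the activator of the other 6, was lowest in both libraries. Its FPKM was 0.629 (0.545 to 0.713) on 223 fragments untreated and 0.00569 (0 to 0.0126) on 3 treated. The ratio was 110.5 (34.1 to 494), on a treated value of so few fragments that the interval is wide. Ciita never reached FPKM 1 and was not counted among expressed entries, and its log2(FPKM + 1) change of -0.70 understates the difference of so low a gene. With no pseudocount, and over the 12304 entries with at least 100 fragments in the untreated library, all 7 members were at least 5-fold lower, as were 9.03% of those entries; this rule was chosen after the values were seen.

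**Figure D1:**
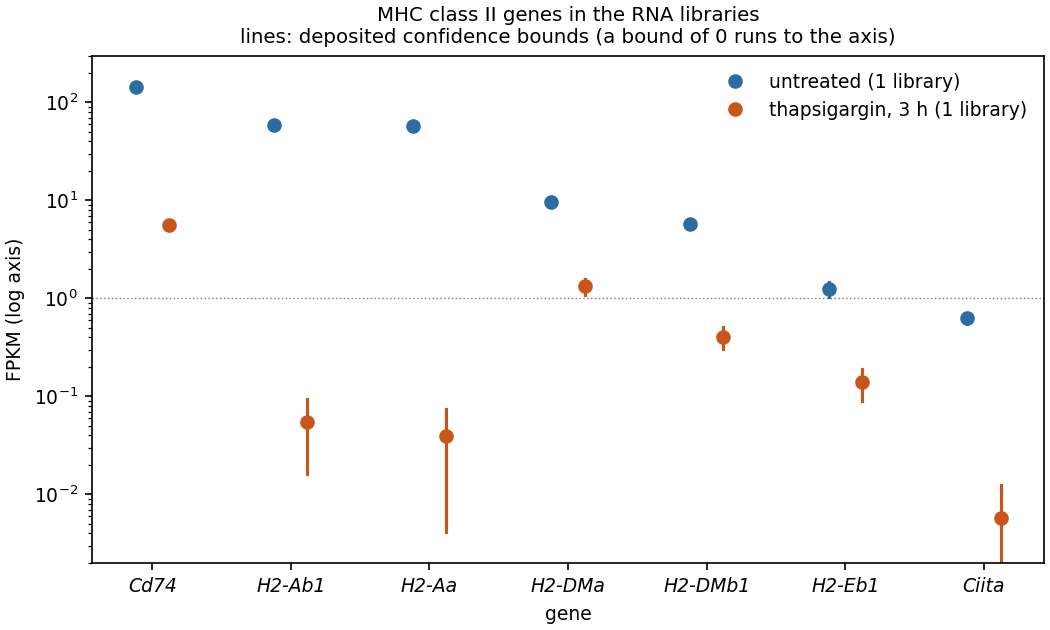
FPKM of the 7 genes (log axis) in the untreated and the treated library, 1 library each, with the deposited confidence bounds as lines and FPKM 1 as a dotted line. Every treated value lies below its untreated value, and H2-Aa and H2-Ab1 drop from 57.8 and 58.7 to below 0.1 while Cd74 stays at 5.61.

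In untreated cells the levels thus ran from Cd74 through H2-Ab1 and H2-Aa, H2-DMa, H2-DMb1 and H2-Eb1 to Ciita, and only H2-Ab1 and H2-Aa had overlapping bounds. After treatment the order was Cd74, H2-DMa, H2-DMb1, H2-Eb1, H2-Ab1, H2-Aa and Ciita, and there the bounds of H2-Ab1 overlapped those of H2-Eb1 and H2-Aa, and those of H2-Aa overlapped those of Ciita. The 5 entries whose untreated level and change lay nearest to the median of the expressed members, out of 22975, were Rpl3 at 24.2 and 1.499, Tbcd at 23.8 and 1.40, Fah at 22.9 and 1.26, Nsmce4a at 23.7 and 1.81 and Scfd1 at 27.8 and 1.98. Likeness was the Euclidean distance over these 2 libraries, between 0.0214 and 0.218. Set against genes of like junction density, their changes were -2.13, -1.46, -1.50, -1.53 and -1.37.

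The remaining class II genes were low throughout. H2-DMb2, a second DM beta chain, stood at FPKM 2.11 on 87 fragments untreated and 0.252 on 22 treated, a ratio of 8.36 (5.19 to 14.0) and a log2 change of -1.31, or -0.87 against genes of like junction density. The chains of H2-DO, a partner that restrains H2-DM in B cells, were below FPKM 1 in both libraries: H2-Oa stood at 0.387 and 0.0320, and H2-Ob at 0.186 and 0.0196. H2-Ea-ps, the I-E alpha gene that is annotated as a pseudogene, stood at 0.974 on 40 fragments and was then listed at 0. H2-Eb2 was listed at 0 in both. Of these 5 listed genes 1 was expressed, and it was lower.

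Genes that act around the class II molecule differed less. Of 11 expressed genes of peptide loading and traffic, 6 were lower and 0 higher, with a median of -1.11. Against genes of like junction density none reached the limit, and the median was -0.35. Cst3, an inhibitor of cathepsins, stood at 936 and 358, and the endosomal protease gene Ctsd at 654 and 435. Lgmn, an endosomal protease, stood at 272 and 87.6, and Ifi30, which reduces disulfide bonds of antigens, at 76.4 and 24.2, with log2 changes of -1.62 each. The lysosomal protease gene Ctss, which trims the invariant chain and was named after its values were seen, stood at 91.9 and 67.0.

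The factors that bind class II promoters were present in both libraries. Of 11 expressed genes 1 was lower and 0 higher, with a median of -0.16, or 0 lower and 1 higher with a median of 0.15 against genes of like junction density. Rfx5, a subunit of the RFX complex, stood at FPKM 3.84 and 4.68, and Nfya, a subunit of NF-Y, at 13.6 and 14.3. Among the coactivators that CIITA recruits, Crebbp had a log2 change of -1.31 and Carm1 stood at 44.9 and 22.9. Interferon gamma induces Ciita through JAK kinases, and of 9 expressed genes of that pathway 0 were lower and 2 higher, with a median of 0.28, or 0 and 3 with a median of 0.46 after the same adjustment. Ifng itself was listed at 0 in both libraries. Irf1, which binds the interferon-responsive Ciita promoter, stood at 12.5 and 112.0, a log2 change of 3.07. Jak1 stood at 53.7 and 30.3 and the receptor gene Ifngr1 at 34.0 and 41.4, while the feedback inhibitor Socs1 was higher, at 7.78 and 22.9.

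MHC class I genes, which present peptides from the cell's own cytosol, had counts that turned with the scaling. Of 15 expressed genes (with Canx, whose treated estimate failed) 4 were lower and 2 higher, and the median was -0.43. Centred, 1 was lower and 4 higher, and against genes of like junction density 0 were lower and 4 higher, with a median of 0.18. The shares of all entries in these settings were not counted. B2m, the light chain, stood at 496 and 572, and the chaperone gene Calr at 534 and 1327. Erap1, which trims peptides, had a log2 change of -1.42. Nlrc5, which activates class I genes and is a relative of CIITA, stood at 0.263 and 0.273. No test of class II against class I was possible with 1 library per condition.

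Markers of the cells that could hold class II RNA were read beside these values. Macrophage and general leukocyte markers were abundant, although the label names fibroblasts: all 22 listed genes were expressed, with 5 lower, 2 higher and a median of 0.33, and none was at 0. The balance turned with the scaling, to 1 lower and 10 higher when centred on the median of entries that reach FPKM 5 in each library, and to 1 lower and 7 higher, with a median of 0.79, against genes of like junction density. Without the shares of all entries in these settings, such counts are not a result about the macrophage markers. Their summed FPKM was 1926 untreated and 2401 treated, 1.246 times as high (with Itgam, whose treated estimate failed), while that of the class II genes was 36.5-fold lower. Lyz2, the macrophage lysozyme, stood at 880 and 951, C1qa, a complement subunit, at 207 and 316, and Csf1r, the macrophage growth factor receptor, at 20.5 and 36.5. Ptprc, the leukocyte antigen CD45, stood at 4.41 and 3.26, and Emr1, which encodes F4/80, at 14.3 and 9.32. Some members of the list went apart: Cd14 was higher, at 14.8 and 111.4, and Lyz1 was lower, at 31.2 and 1.16.

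Dendritic cell markers were low in the untreated library. Of 13 listed genes, 6 were expressed, 1 of them lower and 2 higher, with a summed FPKM of 12.5 and 62.6. The number at 0 was 3 untreated and 2 treated. Itgax, the integrin CD11c, stood at 2.99 and 0.476, a ratio of 6.28 (5.46 to 7.25). Genes with a junction density like that of Itgax had a median log2 change of -1.53, so that its change of -1.43 became 0.09 and none of the list was lower in that setting. That median rests on entries at FPKM 5 or more in either library, and log2(FPKM + 1) understates the change of a gene as low as Itgax. The 0.09 therefore does not show that its ratio matches that of such genes. The maturation markers Cd83 and Cd86 were higher, at 2.99 and 35.5 and at 2.43 and 19.8. Among Langerhans cell markers, 2 of 4 expressed genes were lower and 1 higher, with Epcam at 3.21 and 0.0853 and Id2 at 30.3 and 87.8, and the list sum was 40.4 and 90.6. Id2, which many cell types express, made up most of that sum, and the other 4 markers all had a lower FPKM in the treated library. Against genes of like junction density 1 was lower and 1 higher. Cd207, the defining marker langerin, was near 0 in both, on 2 and 1 fragments.

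Defining B and T cell markers were at or near 0. None of 8 B cell markers was expressed, and their summed FPKM was 0.177 and 0.108, with 6 of the 8 at 0 untreated and 2 treated. Of 9 T and NK cell markers 1 was expressed, Cd4 at 3.67 and 1.74, which is also carried by some macrophages. Their sum was 4.45 and 2.45, with 6 at 0 untreated and 2 treated, and Cd3e was at 0 untreated. Keratinocyte markers were lower in 7 of 9 expressed genes (6 against genes of like junction density), with a summed FPKM of 30.4 and 3.07, 9.91-fold lower, and 1 and 0 of 11 at 0. Krt17 stood at 7.17 and 0.330 and Krt14 at 6.39 and 0.495. Endothelial markers summed to 6.59 and 2.03, with 1 expressed gene, Erg, at a log2 change of -1.23, or -0.79 against genes of like junction density. Fibroblast markers were lower in 7 of 14 genes and higher in 1, with Col1a1 at 6473 and 884, Col1a2 at 3957 and 883 and Fap at 13.9 and 0.772. The 1 higher was Twist2, at 50.2 and 105.8, named after its value was seen. Against genes of like junction density 3 were lower and 1 higher, and Col1a1 and Col1a2 changed to -0.96 and -0.25, below the limit in size. The part of dendritic, keratinocyte or other minor cells in the class II difference was not tested.

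**Figure D2:**
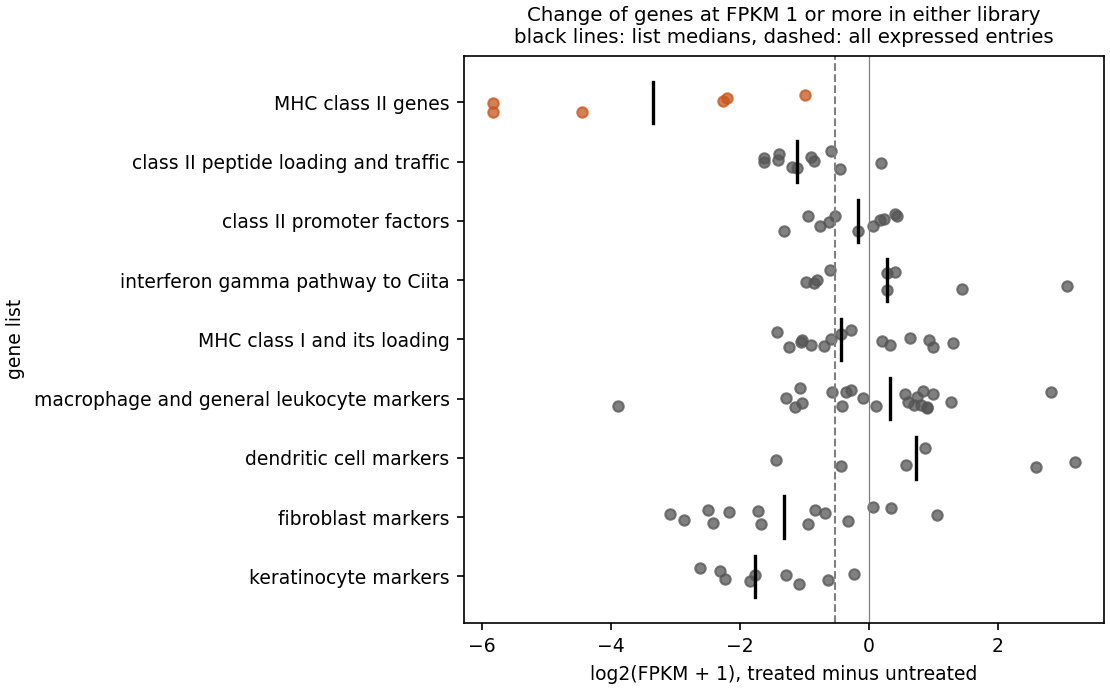
Change of each gene at FPKM 1 or more in either library, as log2(FPKM + 1) treated minus untreated, in rows by gene list, with list medians as black lines and the median of all expressed entries, -0.52, dashed. The 6 expressed class II genes lie between -5.82 and -0.98, and the macrophage list, with a median of 0.33, reaches from -3.89 to 2.83.

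DNA methylation was listed for untreated cells only, as the percent of methylated reads at each CpG cytosine, without coverage, so the depth behind a value is unknown. Over each locus and 2 kb on both sides, H2-Ab1 had the lowest mean of the 7, 17.9% over 365 cytosines, and Cd74 the highest, 78.5% over 365. H2-Aa had 42.8% (134 cytosines), H2-DMa 44.8% (286), H2-Eb1 47.8% (287), H2-DMb1 62.5% (180) and Ciita 62.9% (1019). The median over 21516 gene entries was 62.2%, and H2-Ab1 lay at percentile 3.24 of them and Cd74 at percentile 96.8. H2-Ab1 and Cd74, both abundant in untreated RNA, thus lay at different ends of this scale, and H2-Aa lay at percentile 16.1.

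A limit of these values is the strain. FVB/N was aligned to mm9, which is the C57BL/6J genome, and class II genes differ much between strains. A strain difference that removes a CpG can be listed as 0% and cannot be told apart from an unmethylated cytosine. In H2-Aa 54 of 134 cytosines (40.3%) had a value on 1 strand only, and 31 of the 39 cytosines at 0% were among them. That share was 17.3% in H2-Ab1 and 17.8% in H2-DMb1, against 4.48% over chromosome 17, and 6.62%, 0.699%, 1.37% and 1.67% in H2-Eb1, H2-DMa, Cd74 and Ciita. Over reference CpGs listed on both strands, the locus mean was 52.2% for H2-Aa, 67.5% for H2-DMb1, 49.0% for H2-Eb1 and 17.5% for H2-Ab1, and H2-DMa, Cd74 and Ciita moved by less than 1 percentage point.

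Within 1 kb of the start, the mean was 17.8% at H2-DMa (84 cytosines), 18.97% at H2-Ab1 (62), 32.4% at H2-Aa (42), 50.1% at H2-Eb1 (29), 52.3% at Ciita (41), 59.9% at H2-DMb1 (34) and 74.0% at Cd74 (32). Starts with a like number of cytosines had medians of 34.8% for H2-DMa, 64.6% for H2-Ab1, 68.7% for H2-Aa, 68.1% for H2-Eb1, 68.6% for Ciita, 68.7% for H2-DMb1 and 68.6% for Cd74. Of the 7, 6 lay below that median and Cd74 lay above it. The window changed some of these means by over 1.5 times: within 500 bp H2-DMa had 2.91% and H2-Ab1 4.79%, and within 2 kb they had 43.3% and 9.04%. Over reference CpGs listed on both strands the start of H2-Aa had 30.8%, that of H2-Ab1 18.6% and that of H2-DMb1 67.2%.

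Within the H2-Aa locus and 2 kb on both sides, low methylation lay around the start. The longest run of cytosines under 50% in its locus, counting only CpGs listed on both strands, went from -319 to 80 bp from the start, with 13 cytosines and a mean of 7%. It takes in the promoter letters shown for H2-Aa, in which both strands of the CpG inside TGACGTCA were listed at 0%. Farther upstream of H2-Aa, beyond those 2 kb, CpGs listed on both strands between -3830 and -4226 bp were also low, at 0% to 12%. The whole RefSeq promoter window of H2-DMb1 held 6 cytosines with a mean of 33.2%, and that of H2-Eb1 held 0. The RefSeq windows of H2-DMa lie upstream of its gene entry, 1 beside Brd2 with 58 cytosines and a mean of 0.121%, and 1 with 0 cytosines. Ciita has several annotated starts. The mean was 52.3% at chr16:10480237, 58.9% at the 4 starts between positions 10488271 and 10488392, and 35.2% (77 cytosines) at position 10489876, where starts with a like number had a median of 49.0%. That last start lies in the longest low run of the Ciita locus, 40 cytosines with a mean of 7.85% (chr16:10489608-10490293).

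In H2-Ab1 the low methylation ran from the promoter into the gene, and in H2-Eb1 the longest low stretch lay within the gene. In H2-Ab1 241 cytosines in a row were under 50%, with a mean of 4.94%, over 2726 bp (chr17:34399766-34402491) from -406 to 2319 bp from the start, which takes in exons 1 and 2. In H2-Eb1 80 cytosines in a row, with a mean of 11.0%, covered 718 bp (chr17:34446323-34447040) from 3511 to 4228 bp after the start, and held exon 2. Exon 2 of a class II beta chain gene encodes the domain that lines the peptide groove. In H2-DMa the longest such run, 73 cytosines with a mean of 20.4%, lay past the gene's end (chr17:34276197-34277289). In H2-DMb1 the longest held 7 cytosines and in Cd74 4.

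**Figure D3:**
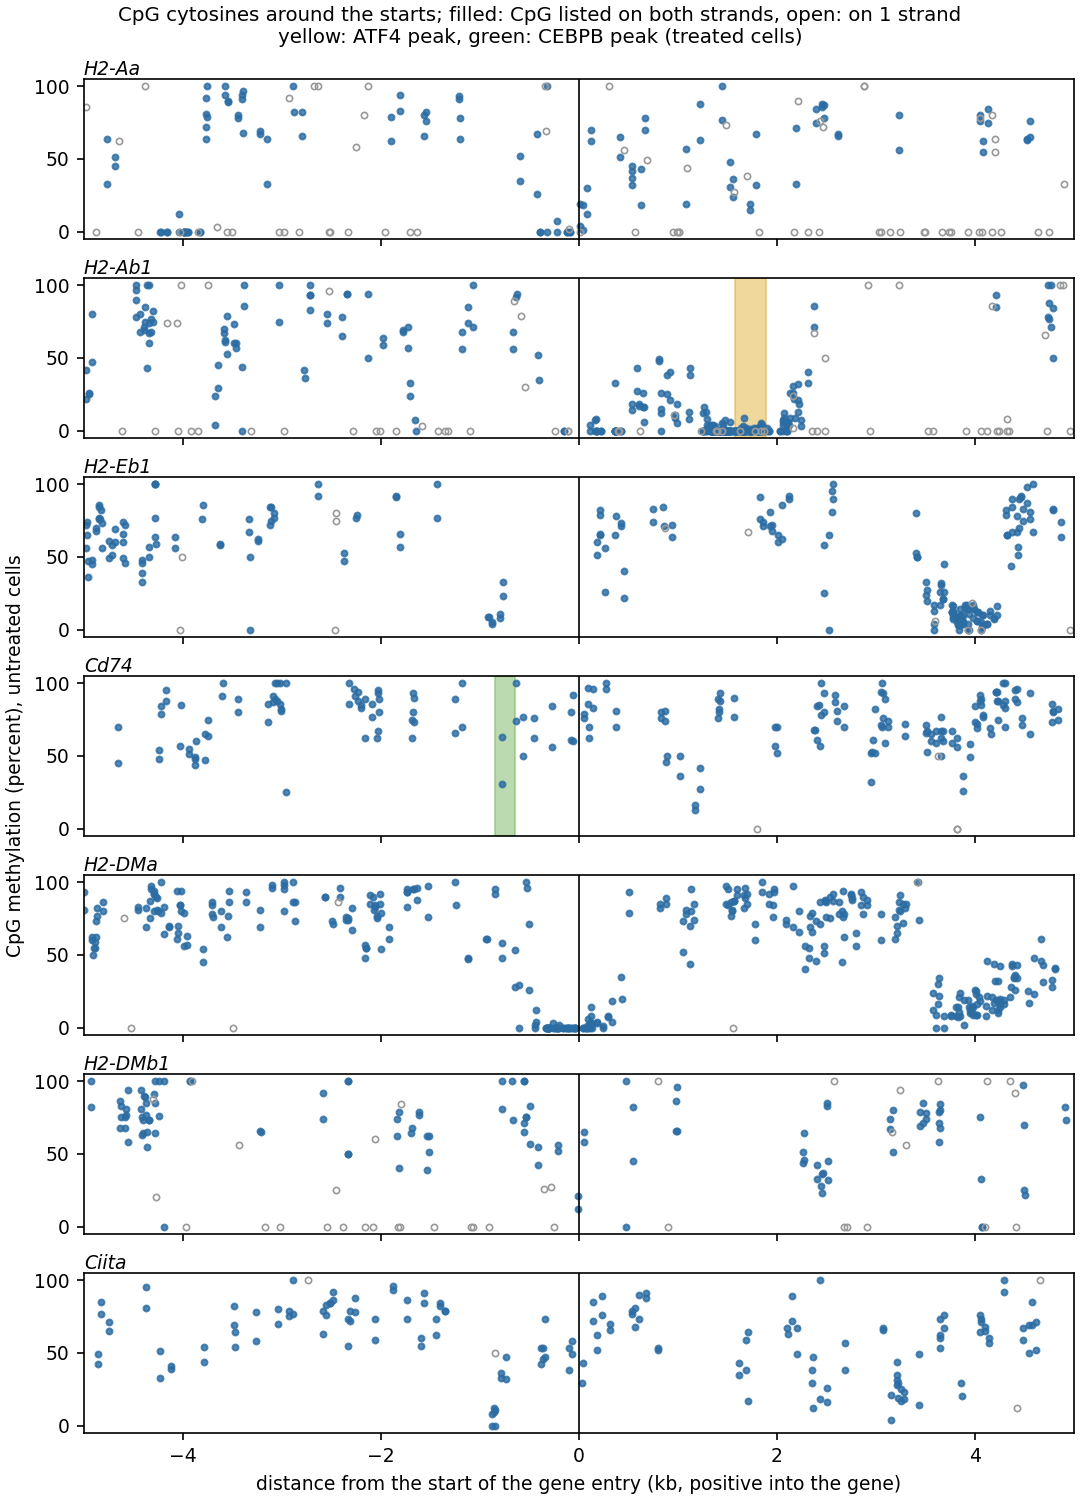
Percent methylation of each CpG cytosine in untreated cells, pooled from both bisulfite libraries, against the distance from the start of the gene entry in kb, with 1 panel per gene, filled points for CpGs listed on both strands and open points for those listed on 1. H2-Ab1 is low from its start to past the ATF4 peak (yellow), H2-Eb1 is low between 3511 and 4228 bp, Cd74 is high around its start, and most open points at 0% lie in H2-Aa, H2-Ab1 and H2-DMb1.

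Across gene lists, the class II starts had a median of 50.1%. The other class II molecules had 53.5%, macrophage and leukocyte markers 53.2%, dendritic cell markers 55.9%, B cell markers 68.3% and T and NK cell markers 74.7%. Fibroblast markers had 10.2% and class I genes 5.32%. The starts in these lists differ in their number of cytosines, with a median of 41 for class II genes, 85 for fibroblast markers and 185.5 for class I genes. Set against starts with a like number of cytosines, the median difference in percentage points was -17.0 for class II genes and -13.5 for the other class II molecules. It was -7.12 for macrophage, -1.46 for dendritic cell, 1.43 for B cell and 8.97 for T and NK cell markers. Fibroblast markers had -21.9 and class I genes -2.30. The lists are given side by side without a test. Among macrophage genes whose RNA was abundant, the start of C1qa had 44.6% and that of Lyz2 53.9%.

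**Figure D4:**
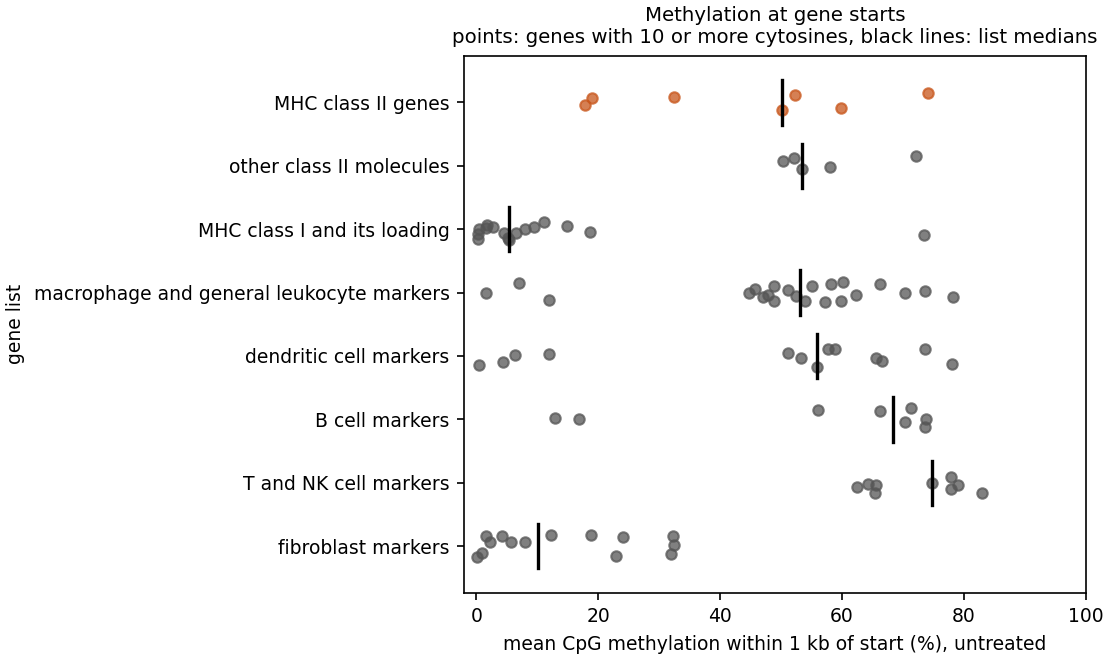
Mean CpG methylation within 1 kb of the start in untreated cells, in percent, for each gene with 10 or more cytosines, in rows by gene list, with list medians as black lines. Class II starts spread from 17.8% to 74.0%, macrophage starts lie mostly between 40% and 80%, and class I and fibroblast starts lie mostly below 35%.

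CEBPB and ATF4 peaks were then located around the class II genes. A peak is given with the score of its own list, the authors' value, and its rank in that list. Within 50 kb, CEBPB peaks of untreated cells lay near 2 of 7 members (34.5% of 22942 gene entries), CEBPB peaks of treated cells near 3 of 7 (37.7%) and ATF4 peaks near 6 of 7 (64.1%). These shares are near those of all entries, and neighbouring members on chromosome 17 share peaks, so that the distinct peaks numbered 2, 2 and 4. Within 10 kb the members with a peak were 0, 1 and 1, where 17.3%, 18% and 43.6% of all entries had one.

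The single peak inside a member was an ATF4 peak of treated cells in H2-Ab1, chr17:34401750-34402065, with score 10.56 and rank 878 of 10109. It covers 316 bp, of which 229 lie in exon 2 of 6 (coding), and is the peak counted for H2-Aa, 17631 bp away, and H2-Eb1, 40747 bp away. Its 77 cytosines had a mean methylation of 0.519% in untreated cells, and it held 39 CpGs and 69.0% G and C. Its central 120 bases (chr17:34401847-34401966, mm9, plus strand, reference strain) are shown because they carry the peak and the unmethylated CpGs together, with CpGs in capitals.
H2-Ab1 peak centre: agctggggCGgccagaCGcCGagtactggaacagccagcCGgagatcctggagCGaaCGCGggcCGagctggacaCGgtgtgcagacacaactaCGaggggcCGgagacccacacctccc
The 21 cytosines listed in this stretch had a mean of 0.286% and none was above 2%. None of TGACGTCA, TGATGCAA, CGATGCAA, TTGCGCAA, TGANNNAA and TTNNNNAA, read on both strands, was found in the 316 bp. TGATGCAA, the composite of a C/EBP and an ATF site, was in 0.752% of all ATF4 peaks. TGACGTCA was in 1.88% of them, CGATGCAA in 0.129%, TTGCGCAA in 0.218%, TGANNNAA in 15.5% and TTNNNNAA in 19.4%. Most ATF4 peaks thus lack each of these motifs, and their absence is not a trait of this peak. These letters are those of the reference, and FVB/N may differ.

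The other ATF4 peaks within 50 kb lay at the starts of neighbouring genes. They were at Rps14, 28947 bp from Cd74 (chr18:60934327-60934556, score 7.6, rank 2326), at Brd2, 12902 bp from H2-DMa (chr17:34259518-34259714, score 3.11, rank 9325), and at Tap1, 27570 bp from H2-DMb1 and 49264 bp from H2-DMa (chr17:34324744-34325038, score 4.53, rank 6739). Their mean methylation was 0.0217%, 0.159% and 0.262%. The nearest ATF4 peak to Ciita was 67865 bp away.

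For CEBPB, the peak nearest to a member was 644 bp before Cd74 in treated cells (chr18:60962657-60962859, score 5.59, rank 4230 of 7861). It held 2 cytosines with a mean of 47.0% in untreated cells, and the letters TGANNNAA at 2 places, which 39.2% of CEBPB peaks of treated cells hold. The other CEBPB peak of treated cells lay 27875 bp from H2-DMa and 45395 bp from H2-DMb1 (chr17:34244447-34244741, score 5.07, rank 4815). In untreated cells, a peak 40618 bp from Cd74 had score 79.45 and rank 3911 of 7317 (chr18:60922514-60922885), and a peak 48342 bp from Ciita, in an intron of Clec16a, had score 175.61 and rank 1161 (chr16:10575999-10576511). Scores of the lists are on different scales and each list rests on 1 library, so a gain or loss of binding near these genes was not tested.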

How the data were processed

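Per the submitters' processing notes, CASAVA 1.8.2 and Bowtie were run on the RNA reads, CASAVA 1.7, BWA and SAMtools on the ChIP reads, and CASAVA 1.8 and Novoalign on the bisulfite reads, on mm9. The name of the peak caller, its control or the expression program is not given in the sources used here. RNA was deposited by the authors as FPKM per gene entry with bounds. The authors' peak lists, 1 per library, give each peak a score. Methylation is a percent per CpG cytosine, deposited by the authors as 1 pooled value of both bisulfite libraries, without coverage; the 83035 entries marked heterozygous were left out.

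Bounds were read as lying 2 FPKM over the square root of the fragment number from the value. Implied fragments between 3 and 200 were whole within 0.05 for 73.7% of 4219 untreated and 79.3% of 4363 treated entries. Ratios carry 95% exact binomial counting intervals, which cover counting error only. Changes are differences of log2(FPKM + 1), which understate low genes, and an entry was higher or lower at a difference of 1 or more and FPKM 1 or more in either library. The junction adjustment subtracts the median of genes of like junctions per kb, in 50 bins. Copies were sought with minimap2 2.31-r1302 on 100-bp windows. Starts with a like number of cytosines had a number within 25%. Annotation was GENCODE vM1, and promoter letters were RefSeq's. Scripts used Python 3.11.15, pandas 2.3.3, scipy 1.17.1 and pysam 0.24.0. Only the reading of fragments and the ratio intervals were tested on simulated data. The simulated bounds followed the same formula, so that test does not show that the formula holds for the deposited bounds. No p-values were computed, since each RNA and ChIP condition had 1 library.

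The members and the lists were chosen with earlier results of these data known. Named genes were the members, of each list the 2 highest untreated and the 2 with the largest change, a few defining markers, and the 5 entries nearest in pattern; Nfya, Ctss, Cd207 and other exceptions were chosen after their values were seen. Not every gene under the rule is reported here.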

Additional observations from a re-analysis of the deposited data

How the results depend on the processing

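The count of 5 of 6 expressed members lower became 6 of 6 with a pseudocount of 0.1 and with 0.5. It stayed at 5 of 6 with centring on entries at FPKM 5 or more, like junction density and the nearest bounds. Over all 7 members it was 5 with no filter on low values and 7 with the 5-fold rule. Of these other settings, the share of all entries was counted for the 5-fold rule only. The median log2 change of -3.35 became -4.09 with a pseudocount of 0.1, -3.67 with 0.5, -2.96 when centred, -2.63 against genes of like junction density and -2.26 with no filter, which adds Ciita. Every member stayed lower with either pseudocount, centring, like junction density and the nearest bounds, with changes from -8.70 to -0.26. Members with a peak within 10 kb were 0 for CEBPB untreated, 1 for CEBPB treated and 1 for ATF4. With only peaks within 50 kb at or above the median score of their list, they were 1 for CEBPB untreated, 0 for CEBPB treated and 4 for ATF4. The share of all entries with such a peak was not computed. Restricting to CpGs with both strands moved 1 of the 7 locus means, and the 500 bp and the 2 kb window at the start each moved 5 of 7. No paired analysis was possible because the RNA and ChIP conditions have 1 library each and the numbered bisulfite libraries were deposited as 1 pooled value. With 1 library per condition, no value here covers variation between cultures, and the 5 and 8 treated fragments of H2-Aa and H2-Ab1 limit their ratios to a wide range. Without coverage the precision of a methylation percent is unknown.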

Other observations

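Expressed as halvings over the 3 h of treatment, the ratio of H2-Aa came to 10.5 (9.30 to 12.2 from its counting interval), 1 per 17.1 min, and that of H2-Ab1 to 10.1 (9.08 to 11.3), 1 per 17.9 min. The ratio of Cd74 came to 4.67 halvings (4.55 to 4.79), 1 per 38.5 min, and that of H2-DMa to 2.86 (2.55 to 3.17), 1 per 63.0 min. Whether RNA of these genes is lost at such a rate, or whether the 2 cultures held different cells, was not tested.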
